A study of Mus musculus with 3 samples.

Results

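Mouse bone marrow-derived dendritic cells kept for 48 h with buffer were compared, across all genes, with the same kind of culture left without addition. The comparison rests on 2 of the 3 libraries of the series, those whose treatment labels read buffer and ctrl, and each group is 1 library. Both cultures were grown from marrow of femurs and tibias with the growth factor GM-CSF, and floating cells were taken on day 6. Moving the floating cells to new plates every other day served to limit macrophages. Neither received the protein under study, the recombinant articulatin B chain (rATB), which the remaining library received at 800 ng/ml. The composition of the buffer, and the strain, sex, age and number of the mice, were not found in the labels. For buffer, the label for dose says 1 ng/ml without naming what was dosed, so no dose is assigned. Nothing says whether the cultures shared mice, plates or a day of work, so the addition of buffer cannot be told apart from any difference between the cultures or their library preparations.

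Of 34590 gene symbols, 12556 averaged 1 unit or more over both libraries and were compared. The control library held 17776492 reads and the buffer library 16105080. A unit is 1 scaled read per 1000000 reads of the control library, so that 1 unit stood for 17.8 reads in the control and 17.1 in the buffer library. Levels are not divided by gene length, so they compare libraries for 1 gene and not genes with each other. A gene counted as higher or lower when its log2(value + 1) was apart by the log2 of 1.5 or more. Each ratio of the buffer level to the control level is followed by its exact 95% interval, which covers counting error only. With 1 library per group no difference has a replicate check, and none was tested.

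GM-CSF cultures of marrow hold cells with features of dendritic cells and of macrophages. When oxygen is plentiful, EGLN prolyl hydroxylases mark the alpha subunits of hypoxia-inducible factor (HIF) for destruction. When oxygen runs short, HIF raises genes of glycolysis, glucose uptake, mitophagy and blood vessel growth, and it binds the core motif ACGTG. Class II molecules present peptides to helper T cells, and their genes depend on the coactivator CIITA and on promoter elements that include an inverted CCAAT box, ATTGG. Genes of mitosis often carry the cell cycle homology region, TTTGAA, near their start.

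The promoters below belong to the gene groups that differed together, and they show these motifs in capitals. They are RefSeq windows of 300 bases on build GRCm38.p6, from 250 bases before the annotated start to 50 after it, written 5′ to 3′ on the strand of the gene. Within each group they are members with the largest differences that had an entry and the motif. Egln3 is at chr12:54203825-54204124 on the minus strand, Bnip3 at chr7:138909457-138909756 on the minus strand, H2-Ob at chr17:34238655-34238954 and H2-Eb1 at chr17:34305617-34305916 on the plus strand, and Ect2 at chr3:27153829-27154128 on the minus strand.
Egln3: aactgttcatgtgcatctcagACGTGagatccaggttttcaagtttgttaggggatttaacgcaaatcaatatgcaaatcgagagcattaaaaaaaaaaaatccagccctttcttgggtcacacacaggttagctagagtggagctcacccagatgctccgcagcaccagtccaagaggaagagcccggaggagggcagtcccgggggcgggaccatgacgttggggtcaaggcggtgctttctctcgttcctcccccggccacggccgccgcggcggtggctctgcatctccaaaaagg
Bnip3: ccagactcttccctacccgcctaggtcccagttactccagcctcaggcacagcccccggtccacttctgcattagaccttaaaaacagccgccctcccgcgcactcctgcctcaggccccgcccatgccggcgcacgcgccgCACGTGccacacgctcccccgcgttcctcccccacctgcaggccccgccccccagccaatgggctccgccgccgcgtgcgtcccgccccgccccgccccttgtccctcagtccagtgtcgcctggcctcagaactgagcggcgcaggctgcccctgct
H2-Ob: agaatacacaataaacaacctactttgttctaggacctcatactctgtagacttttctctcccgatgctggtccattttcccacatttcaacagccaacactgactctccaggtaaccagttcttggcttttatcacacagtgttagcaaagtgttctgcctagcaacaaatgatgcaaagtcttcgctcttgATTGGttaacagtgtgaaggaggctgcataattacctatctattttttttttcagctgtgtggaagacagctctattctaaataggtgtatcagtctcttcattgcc
H2-Eb1: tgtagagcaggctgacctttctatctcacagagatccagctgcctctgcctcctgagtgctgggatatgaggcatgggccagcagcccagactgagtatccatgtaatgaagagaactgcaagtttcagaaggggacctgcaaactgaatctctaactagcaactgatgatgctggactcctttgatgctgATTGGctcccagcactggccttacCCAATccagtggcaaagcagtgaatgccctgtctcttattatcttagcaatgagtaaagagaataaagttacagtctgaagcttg
Ect2: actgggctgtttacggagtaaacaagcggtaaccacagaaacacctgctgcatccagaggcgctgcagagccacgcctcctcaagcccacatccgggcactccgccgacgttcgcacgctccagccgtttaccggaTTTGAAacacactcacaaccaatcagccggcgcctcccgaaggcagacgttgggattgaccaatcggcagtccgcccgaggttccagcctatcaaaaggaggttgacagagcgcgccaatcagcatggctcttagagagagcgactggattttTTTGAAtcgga

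In Bnip3 the motif ACGTG lies at position -107 relative to the annotated start, and its other strand reads the same motif from position -108, which together spell the palindrome CACGTG. In H2-Ob and H2-Eb1 the box ATTGG lies at positions -57 and -59, and H2-Eb1 holds a copy on the other strand at -35. Searched on both strands, ACGTG was in the windows of 30 of the 45 glycolysis and hypoxia genes with an entry, or 66.7%, against 29.6% of the 9267 compared genes matched to an entry. ATTGG was in those of 12 of 14 class II presentation genes, or 85.7%, against 42.7%. TTTGAA or TTCGAA was in those of 25 of 31 mitosis genes, or 80.6%, against 16.7%. The E2F motifs TTTCGCG or TTTGGCG were in 12 of 31 DNA replication genes, or 38.7%, against 4.85%. ATTGG was also in 25 of the 31 mitosis genes, so that a motif was not particular to the list it was searched for. Base composition was not matched, and a match describes these letters only.

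The buffer and control libraries were close. Over all 12556 genes the differences in log2(value + 1) had a standard deviation of 0.19, and the middle 95% of genes lay between -0.41 and 0.35. By the 1.5-fold rule, 46 genes were higher in buffer, or 0.366% of those compared, and 90 were lower, or 0.717%. Of the 46, 37 had a mean under 5 units, while 26 of the 90 stood at 20 units or more, a level at which 0 genes were higher. The median of all genes was -0.05 with the deposited scaling and 0.03 when each library was scaled to its own total. The calls were then 83 higher and 66 lower, with a median-of-ratios scaling 63 and 79, and with a trimmed-mean scaling 67 and 77. Counting intervals lay wholly above 1 for 5.65% of genes and wholly below 1 for 21.9%, or for 15.0% and 9.11% with own totals. The median difference of each of the 6 lists described below kept its sign under every scaling and filter tried.

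**Figure D1:**
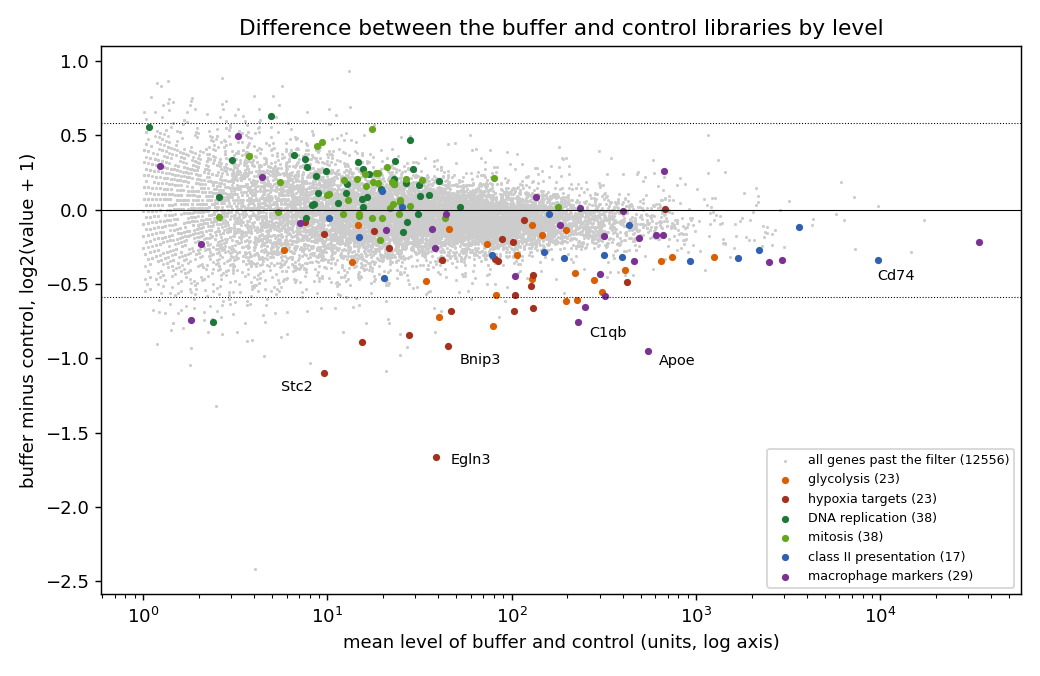
Difference of the buffer from the control library in log2(value + 1) on the vertical axis against the mean level of both in units on a log axis, 1 point per gene, with the members of 6 gene lists in colour and dotted lines at the 1.5-fold rule. Egln3 lies far below the other hypoxia genes at -1.66, glycolysis genes and 22 of 23 hypoxia genes lie below 0, and cell cycle genes lie mostly above it.

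Ranked by difference among genes that have a name and average 5 units or more, the 10 genes furthest below the control included 5 of the hypoxia list. They were Egln3, Stc2, Bnip3, Ankrd37 and Ak4. The others were Selenbp1, Ngp, Cxcr7, Apoe and Ppp1r13l. The hypoxia list, 23 of the 12556 genes compared, was chosen with earlier results of these data known, so this overlap adds no support. Selenbp1, a selenium-binding protein, had a level of 28.7 units in the control and 12.998 with buffer, a ratio of 0.452 (interval 0.385 to 0.530). Its close copy Selenbp2 had 2.76 and 0.820 units, and reads may be shared between the pair. Cxcr7, an atypical chemokine receptor now named Ackr3, had a level of 33.0 units in the control and 16.3 with buffer. Ppp1r13l, which encodes an inhibitor of p53, had 7.99 and 4.04 units.

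Among the 10 genes furthest above the control by the same ranking, Il12b came first. It encodes the p40 subunit shared by interleukin-12 and interleukin-23, and its level was 8.66 units in the control and 17.5 with buffer, a ratio of 2.01 (interval 1.65 to 2.46). Cep78, a protein of centrioles, had a level of 3.77 units in the control and 7.49 with buffer. Cell cycle genes were Ncapg, a subunit of condensin, at 5.79 and 9.72 units, and Dtl, which directs the destruction of the replication factor CDT1, at 3.94 and 6.62 units. Cdkn2b, an inhibitor of cyclin-dependent kinases, was at 7.59 and 12.7 units. The rest were Tex15, Cst7, Ndrg4, Timp1 and Efna2, with differences of 0.76, 0.70, 0.69, 0.57 and 0.54, so that Timp1 and Efna2 lay just under the 1.5-fold rule. These 10 genes had 62 to 251 control reads each.

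Hypoxia targets outside glycolysis were lower with buffer. Of 27 members, all in the table, 23 passed the filter, and their median difference was -0.44 against -0.05 for all genes. Differences were below 0 for 22 of the 23, against 63.4% of all genes. By the 1.5-fold rule 8 were lower, beside 0.717% of all genes, and 0 higher. Counting intervals lay below 1 for 18, beside 21.9% of all genes. With own totals the median was -0.36, 21 of 23 were below 0, and 7 were lower by the rule. The shares of all genes were then 41.9% and 0.524%. The members were chosen with this pattern known from earlier results of these data, so these counts describe the pair of libraries and add no support.

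**Figure D2:**
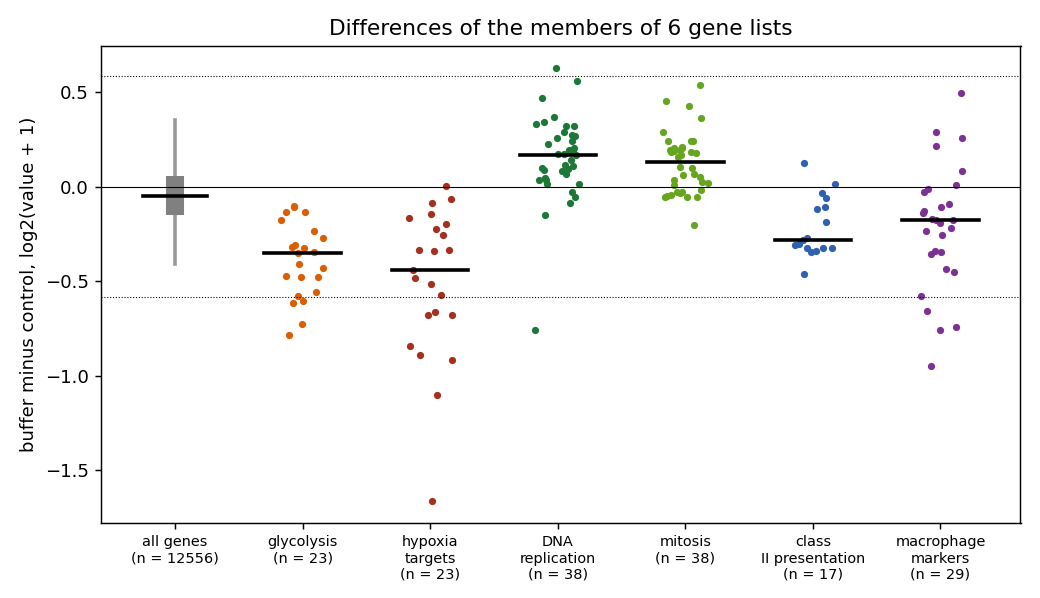
Buffer minus control difference in log2(value + 1) for each member past the filter of 6 gene lists, 1 point per gene with the list median as a black line, beside all 12556 genes drawn as the median, the middle 50% (thick bar) and the middle 95% (thin line); dotted lines mark the 1.5-fold rule. The medians were -0.35 for glycolysis, -0.44 for hypoxia targets, 0.17 for DNA replication, 0.13 for mitosis, -0.28 for class II presentation and -0.18 for macrophage markers.

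Among the oxygen sensors, Egln3 (ENSMUSG00000035105), a HIF prolyl hydroxylase that HIF itself induces, had the largest difference of the list. Its level was 59.6 units in the control (1060 reads) and 18.2 with buffer (310 reads), a ratio of 0.304 (interval 0.267 to 0.346), while the rATB library stood at 47.3. Egln1, the main hydroxylase in most cells, had a level of 125 units in the control and 83.6 with buffer, a ratio of 0.669 (interval 0.625 to 0.715). Egln2, which is not a classical HIF target, was at 51.2 and 44.1 units. The order of the 3 paralogs by the size of their difference was thus Egln3, Egln1 and Egln2, at -1.66, -0.57 and -0.21. The 6 oxygen sensing regulators on a list of their own, Egln2 among them, had differences between -0.32 and 0.10 and a median of -0.03, which turned positive with own totals. Hif1a, which encodes the main alpha subunit, was at 634 and 662 units. Epas1, which encodes HIF-2 alpha, had the lowest value of the 6, at 7.03 and 5.45 units, with an interval of the ratio from 0.586 to 1.02.

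Mitochondrial and metabolic members followed. Bnip3 (ENSMUSG00000078566), a receptor for mitophagy, had a level of 59.6 units in the control and 31.1 with buffer, a ratio of 0.521 (interval 0.469 to 0.579). Its paralog Bnip3l was at 119 and 113 units, a ratio of 0.954 whose interval (0.897 to 1.02) held 1. Ak4, a mitochondrial adenylate kinase, had a level of 36.0 units in the control and 19.6 with buffer, and the rATB library was near buffer at 22.1. Hilpda, which coats lipid droplets and inhibits lipolysis, was at 57.6 and 35.6 units, with the rATB library at 69.2. Ankrd37, a small ankyrin-repeat protein, was at 20.3 and 10.5 units. Members of the same list thus differed in where the rATB library stood relative to the pair.

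Secreted and matrix-related members were lower as well. Stc2 (ENSMUSG00000020303), the secreted glycoprotein stanniocalcin 2, had a level of 13.4 units in the control and 5.74 with buffer, a ratio of 0.427 (interval 0.334 to 0.542). Vegfa, the vascular growth factor, had a level of 491 units in the control and 351 with buffer, a ratio of 0.714 (interval 0.691 to 0.738), below the 1.5-fold size. P4ha1, a subunit of the hydroxylase that matures collagen, was at 151 and 105 units, and the lysyl hydroxylase Plod1 at 149.7 and 110.0 units. Ero1a, listed as Ero1l, an oxidase that helps form disulfide bonds, was at 160.4 and 101 units, and Ndrg1, a stress-responsive gene, at 127 and 79.0 units.

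Several members did not differ beyond counting error. Car9, a carbonic anhydrase, was at 7.76 units in the control and 7.26 with buffer (ratio 0.935, interval 0.728 to 1.201). Higd1a, Rora and Bnip3l also had intervals that held 1. Bhlhe40, a transcription factor, was level between the libraries at 677 and 678 units. The members under the filter were P4ha2 with 23 control and 5 buffer reads, Plod2 with 18 and 15, Adm with 13 and 9, and Car12 with 3 and 2. All 4 had fewer reads with buffer, and the ratio of P4ha2 was 0.226 (interval 0.0672 to 0.608).

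**Figure D3:**
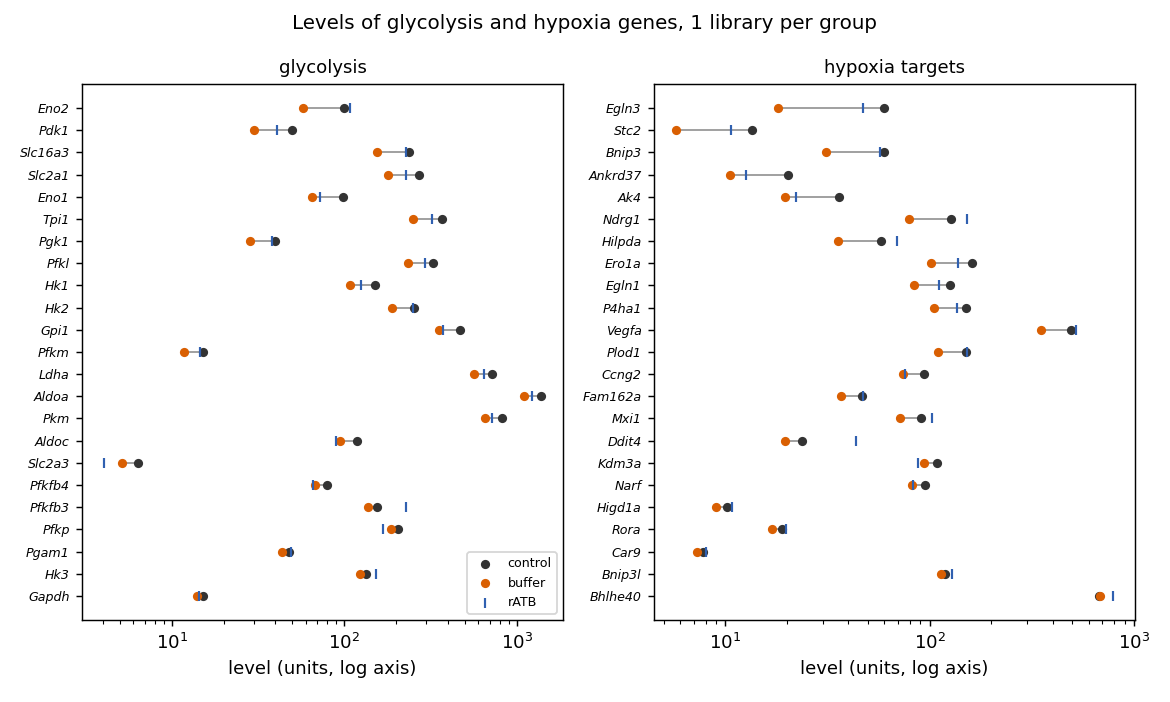
Levels in units, on log axes, of glycolysis genes (left) and hypoxia targets (right) past the filter, in the control (dark points), buffer (orange points) and rATB (blue ticks) libraries, 1 library each, sorted by the buffer minus control difference. Buffer lay below control in all 23 glycolysis genes and in 22 of 23 hypoxia targets, and Bhlhe40 lay level.

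All 23 members of the glycolysis list had a lower level with buffer, also when each library was scaled to its own total. Of all genes 63.4% were below 0, or 41.9% with own totals. The median difference was -0.35, or -0.27 with own totals. By the 1.5-fold rule 4 members were lower, or 2 with own totals, beside 0.717% and 0.524% of all genes. Intervals lay below 1 for 20, beside 21.9% of all genes. The 4 were Eno2, Pdk1, Slc16a3 and Slc2a1. Together the glycolysis and hypoxia lists held 12 of the 90 genes lower by the rule, which is 13.3% of those genes and 26.1% of the 46 members past the filter. Those 46 members were among 12556 genes compared. Both lists were chosen with earlier results of these data known, so this overlap adds no support.

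Transport genes at both ends of the pathway differed alike. Slc2a1, the glucose transporter GLUT1, had a level of 273 units in the control and 179 with buffer, a ratio of 0.656 (interval 0.627 to 0.687). Slc16a3, the lactate exporter MCT4, was at 238 and 155 units, a ratio of 0.651 (interval 0.620 to 0.684). Slc2a3 had few reads, at 6.41 and 5.15 units, with an interval of 0.601 to 1.07. With own totals Slc2a1 and Slc16a3 differed by -0.52 and -0.53 and fell just short of the rule.

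Among the enzymes, members of 1 family differed by unequal amounts. Of the enolases, Eno2 had a level of 99.9 units in the control and 57.6 with buffer (ratio 0.577, interval 0.533 to 0.624), and Eno1 98.2 and 65.5 (ratio 0.667, interval 0.618 to 0.719). Of the hexokinases, which trap glucose in the cell, Hk1 and Hk2 had ratios of 0.720 and 0.742, while Hk3 was at 0.928 (interval 0.875 to 0.985). Of the phosphofructokinases, Pfkl, the liver form, had a ratio of 0.718 (interval 0.690 to 0.748) and Pfkp, the platelet form, 0.910 (interval 0.867 to 0.954). The intervals of Hk3 and Pfkp do not meet those of Hk2 (0.709 to 0.776) and Pfkl.

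Aldoa, Pkm and Ldha, which encode aldolase, pyruvate kinase and lactate dehydrogenase, had close ratios of 0.7999, 0.8001 and 0.786. Tpi1, triosephosphate isomerase, had a level of 368 units in the control and 250 with buffer, a ratio of 0.679 (interval 0.653 to 0.705). Pdk1, a kinase that holds pyruvate back from mitochondria, was at 50.2 and 30.0 units, a ratio of 0.597 (interval 0.535 to 0.667). Gapdh had 271 and 241 reads and an interval of 0.775 to 1.11. It has many processed pseudogenes, as have other enzymes of the pathway, so that its level depends on how shared reads were counted, which is not stated.

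Genes of energy metabolism outside glycolysis had medians nearer to that of all genes. Oxidative phosphorylation genes encoded in the nucleus had a median of -0.09 over 23 members, and none passed the rule. Differences were below 0 for 19, against 63.4% of all genes, or for 13 with own totals, against 41.9%. Intervals lay below 1 for 11, beside 21.9% of all genes, or for 3 with own totals, beside 9.11%. The mitochondrially encoded genes had 7 of 13 members past the filter, with a median of 0.07. All 7 were above 0, against 36.6% of all genes, and had intervals above 1, beside 5.65%. With own totals all 7 intervals also lay above 1, beside 15.0% of all genes. The share of reads in mitochondrial genes was 2.07% in the control and 2.27% with buffer.

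Cell cycle genes were higher with buffer by small amounts. For DNA replication all 38 members passed the filter, 33 had a difference above 0 against 36.6% of all genes, and the median was 0.17. By the 1.5-fold rule 1 member was higher, Cdc6, and 1 was lower, Orc1, beside 0.366% and 0.717% of all genes. Intervals lay above 1 for 12 members and below 1 for 1, beside 5.65% and 21.9% of all genes. For mitosis all 38 passed, 28 were above 0, the median was 0.13, 0 passed the rule in either direction and 10 had intervals above 1. With own totals 35 and 37 of the members were above 0 and the medians were 0.25 and 0.21. In that scaling 7308 of 12587 genes were above 0 and 41.9% were below it, so that most genes were above it. Intervals then lay above 1 for 20 replication and 19 mitosis genes, beside 15.0% of all genes. By the rule 2 replication genes and 1 mitosis gene were then higher, beside 0.659% of all genes.

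Of the genes that license origins, Cdc6, which loads the replicative helicase, had a level of 3.66 units in the control and 6.21 with buffer (65 and 106 reads), a ratio of 1.70 (interval 1.23 to 2.35). Orc1, a subunit of the origin recognition complex, went the other way at 3.26 and 1.52 units (58 and 26 reads), a ratio of 0.467 (interval 0.282 to 0.753). The 6 subunits of the helicase itself had ratios between 1.07 for Mcm4 and 1.26 for Mcm6. Of these, Mcm3, Mcm5 and Mcm6 had intervals above 1.

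Of the genes that supply nucleotides, Rrm2, the regulated subunit of ribonucleotide reductase, had a level of 23.2 units in the control and 32.6 with buffer, a ratio of 1.40 (interval 1.23 to 1.60). Its partner Rrm1 was at 52.3 and 52.9 units (interval 0.922 to 1.11). Fen1, which trims flaps of newly made strands, had 12 and 25 reads, so that its ratio of 2.17 had an interval from 1.05 to 4.74. Pcna, the sliding clamp, did not differ beyond counting error, at 31.3 and 30.7 units.

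Among mitosis genes Cenpe, a kinetochore motor, had the largest difference, with a level of 14.0 units in the control and 20.7 with buffer, a ratio of 1.49 (interval 1.26 to 1.75). Ndc80, which joins kinetochores to microtubules, was at 7.37 and 10.2 units, and Ect2, which starts cytokinesis, at 7.76 and 11.01 units. Top2a, the topoisomerase of dividing cells, was at 74.3 and 86.1 units, a ratio of 1.16 (interval 1.08 to 1.25). The proliferation marker Mki67 was level at 176 and 178 units (interval 0.963 to 1.06), as were the cyclins Ccnb1 and Ccnb2, with ratios of 0.987 and 0.962. Genes of DNA synthesis and of mitosis were therefore not all higher, and the lists were not compared with each other by any test. A mixed list of 14 genes held quiescence genes and cell cycle inhibitors together with D-type cyclins and their kinases. It had 13 members past the filter, with a median of -0.03 that turned positive with own totals, and 0 past the rule. Ccnd2 on that list, cyclin D2, was at 102 and 126 units.

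**Figure D4:**
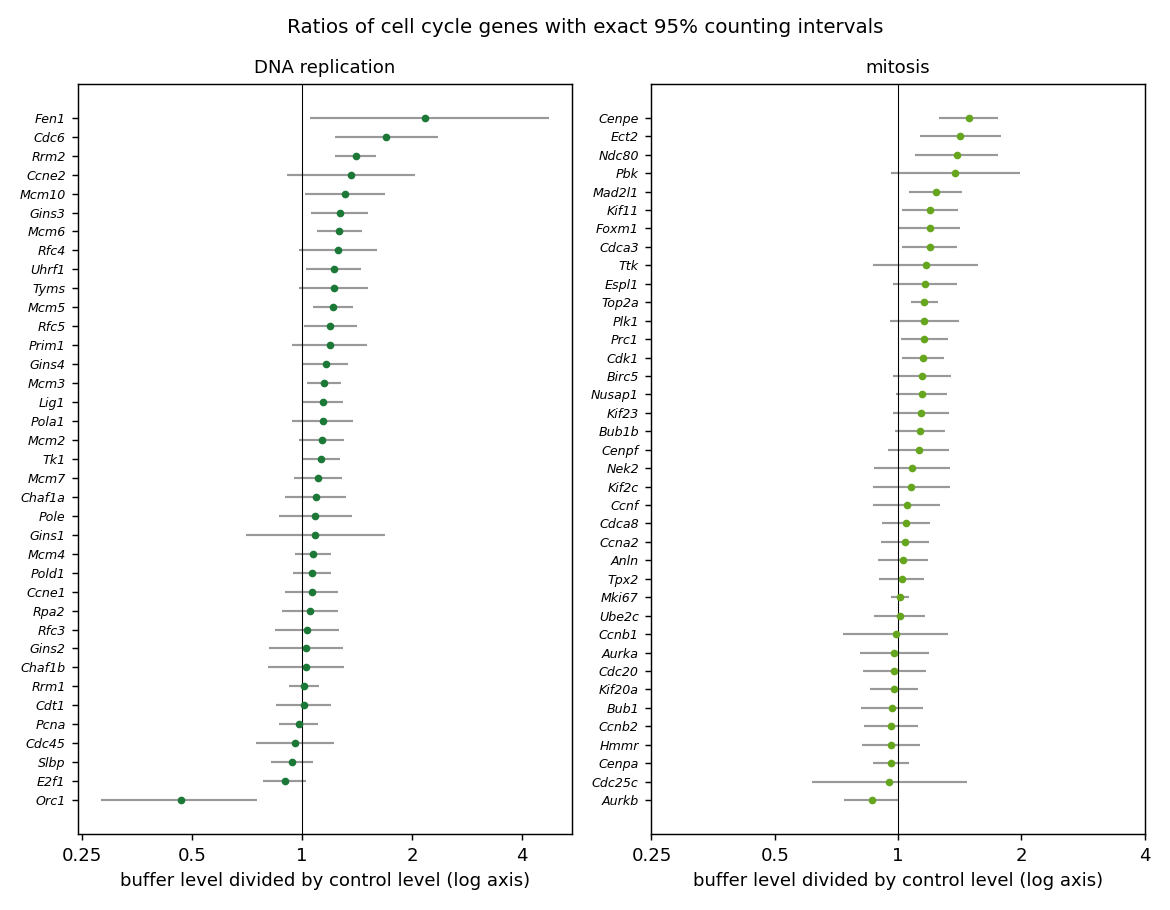
Ratio of the buffer level to the control level on a log axis for 37 of the 38 DNA replication genes (left) and 38 mitosis genes (right), with exact 95% counting intervals as lines and a vertical line at 1. Most points lie right of 1, Cdc6 at 1.70 and Cenpe at 1.49 among the highest, many intervals cross 1, and Orc1 lies left at 0.467.

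Class II presentation genes were mostly lower with buffer. Of 18 members, 17 passed the filter, and the median was -0.28. Differences were below 0 for 15, against 63.4% of all genes. Intervals lay below 1 for 12 and above 1 for 0, beside 21.9% and 5.65% of all genes. No member passed the 1.5-fold rule. With own totals the median was -0.20 and 13 were below 0, against 41.9% of all genes. In bulk RNA, fewer cells of a type and less RNA per cell cannot be told apart.

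Cd74, the invariant chain that guards the peptide groove, had a level of 10811 units in the control and 8533 with buffer, a ratio of 0.789 (interval 0.784 to 0.795). The chain genes H2-Ab1, H2-Eb1 and H2-Aa had ratios of 0.787, 0.799 and 0.829. Their regulator Ciita stood at 214 and 171 units, a ratio of 0.798 (interval 0.760 to 0.838). The peptide loaders H2-DMa, H2-DMb1 and H2-DMb2 were at ratios of 0.808, 0.809 and 0.821. These 8 ratios lay between 0.787 and 0.829. H2-DMb1 and H2-DMb2 are close copies whose reads may be shared.

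The DO subunits, which restrain peptide loading, stood on either side. H2-Ob had a level of 23.7 units in the control and 16.9 with buffer, a ratio of 0.714 (interval 0.613 to 0.832). H2-Oa was at 18.8 and 20.6 units, with an interval of 0.942 to 1.28. The subunits of the RFX complex, which binds beside the inverted CCAAT box, had ratios of 1.01 for Rfx5, 0.957 for Rfxank and 0.871 for Rfxap, all with intervals that held 1. Ctss, a cathepsin that trims the invariant chain, was at 3777 and 3481 units, and Marchf1, a ligase that removes class II from the surface, at 161.5 and 158 units. H2-Eb2 had 6 and 4 reads and did not pass the filter. Class I presentation genes had a median of -0.06 over 14 members, close to that of all genes, and it turned positive with own totals.

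Macrophage markers were lower in part. Of 31 members, 29 passed the filter, and the median was -0.18. Differences were below 0 for 23, against 63.4% of all genes, and 4 were lower by the 1.5-fold rule, beside 0.717%. Intervals lay below 1 for 17 and above 1 for 2, beside 21.9% and 5.65% of all genes. With own totals the median was -0.0923, 21 were below 0 against 41.9% of all genes, and 3 were lower by the rule, beside 0.524%. Intervals then lay below 1 for 16 and above 1 for 5, beside 9.11% and 15.0% of all genes. Vsig4 had 0 reads in both libraries, which allows up to 0.169 units in the control and 0.176 with buffer, and Cd5l had 4 reads in each. The summed level of all 31 was 49424 units in the control, 41884 with buffer and 36376 in the rATB library, most of it Lyz2.

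The complement genes differed together. C1qa, C1qb and C1qc, which encode the chains of the recognition molecule C1q, had levels of 386, 289 and 308 units in the control and 258, 170.4 and 195 with buffer. Their ratios were 0.668 (interval 0.643 to 0.694), 0.590 (interval 0.564 to 0.618) and 0.632 (interval 0.606 to 0.660). Apoe (ENSMUSG00000002985), an apolipoprotein that macrophages secrete, had the largest difference of the list, with 725 units in the control and 375 with buffer, a ratio of 0.518 (interval 0.502 to 0.533). C1q was lowest in the rATB library, with C1qa at 134 units, whereas Apoe there stood at 580 units, between the pair.

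Receptors of macrophages were less uniform. Fcgr1, the high-affinity receptor for IgG, had a level of 119.6 units in the control and 87.4 with buffer, and Csf1r, the receptor for the macrophage growth factor, 2781 and 2176. Adgre1, listed as Emr1 and better known as F4/80, was at 521 and 456 units, a ratio of 0.877 (interval 0.851 to 0.904). Mertk, Msr1 and Trem2, receptors for dying cells and lipids, had ratios of 0.981, 0.993 and 1.01 with intervals that held 1. Cd36, a scavenger receptor for lipids, was higher at 611 and 730 units, a ratio of 1.195 (interval 1.16 to 1.23), and so was the transcription factor gene Spic, at 2.53 and 3.98 units on 45 and 68 reads. Macrophage markers as a list did not move as 1 block.

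**Figure D5:**
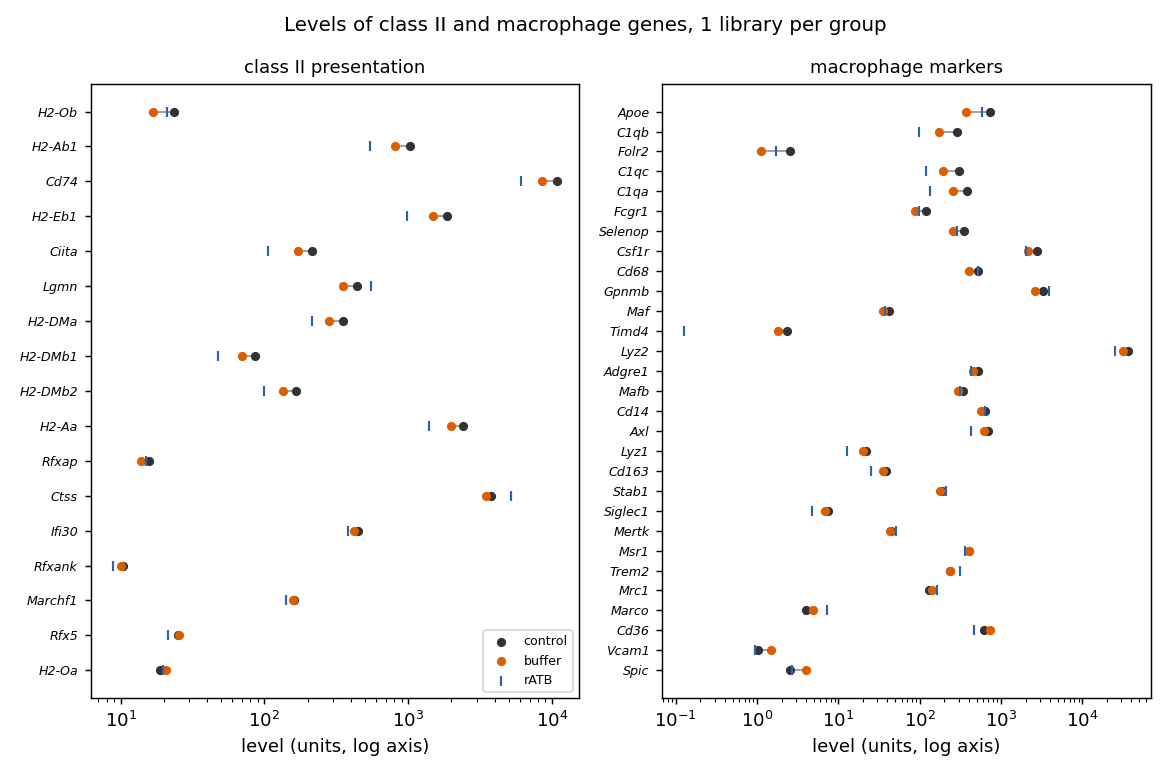
Levels in units, on log axes, of class II presentation genes (left) and macrophage markers (right) past the filter in the control (dark points), buffer (orange points) and rATB (blue ticks) libraries, 1 library each, sorted by the buffer minus control difference. Buffer lay left of control for most members, Folr2, Apoe and C1qb among them with ratios of 0.439, 0.518 and 0.590, while Cd36 and Spic lay to the right.

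Markers of the cell types the cultures could hold were read in the same libraries, and their part in the differences above was not tested. The dendritic cell marker Itgax, which encodes CD11c, was level at 1200.0 and 1213 units, and Zbtb46, a factor of conventional dendritic cells, at 35.1 and 38.1 units. Flt3, a growth factor receptor of their precursors, was at 5.29 and 7.20 units, a ratio of 1.36 (interval 1.03 to 1.80). Of 12 conventional dendritic cell markers, 11 passed the filter, with a median of -0.04 and summed levels of 2213 units in the control and 2182 with buffer. Cd209a was the lowest of them, at 36.2 and 25.0 units, a ratio of 0.690 (interval 0.609 to 0.781). Dpp4, Kmo and Cadm1 had ratios of 0.922, 0.862 and 0.870, also with intervals below 1. Intervals lay below 1 for 4 of the 11 and above 1 for 1, beside 21.9% and 5.65% of all genes. With own totals they lay below 1 for 1 and above 1 for 4, beside 9.11% and 15.0% of all genes. The cultures thus carried the markers of their labelled cell type together with macrophage genes.

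Markers of mature dendritic cells were somewhat higher with buffer. All 10 passed the filter, 7 were above 0 against 36.6% of all genes, and the median was 0.19. The summed levels were 4390.3 units in the control and 4747 with buffer. Ccr7, the receptor for lymph node homing, had a level of 621 units in the control and 723 with buffer, a ratio of 1.16 (interval 1.13 to 1.19). Fscn1, an actin bundler of mature cells, had a ratio of 1.18 (interval 1.14 to 1.22), and Cd83 the same ratio. Tnfrsf9 was lower, at 443 and 384 units. None passed the 1.5-fold rule.

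Neutrophil granule genes were lower in part. Of 15 markers 8 passed the filter, and Ngp, Ltf and S100a9 were lower by the rule, which 0.717% of all genes met. With own totals 2 markers were lower by it. Ngp, a granule protein, had 199 reads in the control and 85 with buffer, a ratio of 0.445 (interval 0.341 to 0.576), and 46 in the rATB library. S100a9 had 304 and 179 reads, whereas its partner S100a8 had 401 and 426, a ratio of 1.11 (interval 0.962 to 1.27). Prtn3 had 56 and 58 reads. Ctsg had 0 reads in both libraries, Mpo 0 and 1, and Ly6g 6 and 2. Also under the filter, Camp had 19 and 6 reads (interval of the ratio 0.107 to 0.856). Elane went the other way with 2 and 12 (interval 1.39 to 57.5). The summed level of the 15 markers was 2123 units in the control and 1854 with buffer, most of it Mmp8. Of 10 monocyte markers 8 passed, all below 0, against 63.4% of all genes, or 6 with own totals, against 41.9%. Their median was -0.11, or -0.04 with own totals, and the summed levels of the 10 were 763 and 701 units. Intervals lay below 1 for 3 of the 8, beside 21.9% of all genes, or for 2 with own totals, beside 9.11%. F13a1 alone, the coagulation factor XIII A chain, at 6.30 and 2.69 units, was lower by the rule, which 0.717% of all genes met. Under the filter, Plac8 had 5 and 14 reads and Ly6c2 11 and 5, both with intervals that held 1.

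Markers of other cell types were read as well. Eosinophil markers summed to 73.3 units in the control and 59.7 with buffer, nearly all from Ear2 and Siglecf, with Epx at 1 read in each library. Prg2, under the filter, went the other way with 3 and 14 reads (interval of the ratio 1.36 to 26.4). Mast cell and basophil markers summed to 67.5 and 70.8 units, almost all from Gata2 and Kit, and Fcer1a, Mcpt8, Cma1 and Tpsb2 had 0 reads in both. The B cell list held 1 member past the filter, Ighm, at 18.4 and 11.4 units, while Ms4a1, Pax5 and Ebf1 had 0 reads. T cell, natural killer cell, erythroid and stromal lists summed to at most 8.94 units in either library, and Cd3e, Ncr1, Hba-a1 and Col3a1 had 0 reads in both. Plasmacytoid dendritic cell markers summed to 76.7 and 68.3 units, and those of megakaryocytes to 651 and 664 units, mainly Pf4 and Ppbp.

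Cholesterol synthesis genes had a median of -0.15, with 20 of 22 members below 0. Intervals lay below 1 for 16 of the 22, beside 21.9% of all genes, or for 5 with own totals, beside 9.11%. Dhcr7, which makes the last step to cholesterol, had a level of 34.3 units in the control and 26.9 with buffer. Lysosome genes had a median of -0.18 with 20 of 21 below 0, and Ctsd, a lysosomal protease, stood at 7908 and 6588 units. Genes of endoplasmic reticulum stress had a median of -0.13 with 15 of 15 below 0, and metallothionein and zinc genes one of -0.19 with 6 of 6, while 63.4% of all genes were below 0. No member of these lists passed the 1.5-fold rule. With own totals the medians of the 4 lists were -0.07, -0.09, -0.04 and -0.11. The members below 0 were then 18 of 22, 18 of 21, 9 of 15 and 4 of 6, beside 41.9% of all genes.

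Few members of the immune signalling lists passed the 1.5-fold rule. Type I interferon genes had a median of -0.15 over 28 members. By the rule 1 was lower, Isg20, beside 0.717% of all genes, while Mx1 had a higher level with buffer, at 257 and 338 units. Of the 28, 21 were below 0, against 63.4% of all genes, or 17 with own totals, against 41.9%. Intervals lay below 1 for 13 and above 1 for 4, beside 21.9% and 5.65% of all genes. With own totals they lay below 1 for 7 and above 1 for 5, beside 9.11% and 15.0% of all genes. Maturation and co-stimulation genes had a median of 0.07 over 24 members, with 1 higher by the rule, Il12b, beside 0.366% of all genes. Of the 24, 17 were above 0, against 36.6% of all genes. Chemokines had a median of 0.07 over 17 members. Ppbp had the largest difference of the chemokines, at 154 and 207 units. Immediate-early genes had a median of -0.10 and iron handling genes one of -0.10. Alternative activation genes were at -0.08 and lipid efflux genes at -0.14. Inflammatory cytokines had a median of -0.09. The medians of NF-kB targets (-0.04), interferon-gamma response (-0.08), integrated stress response (-0.05), heat shock (-0.06), oxidative stress (-0.06), ribosomal protein (-0.02) and housekeeping genes (-0.07) turned positive with own totals. Those of p53 targets and of C-type lectins were 0.01 each. On the NF-kB list 1 of 20 members was lower by the rule, beside 0.717% of all genes, namely Nos2 at -2.42. It averaged under 5 units and is described with the other observations.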

How the data were processed

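TRIzol RNA went into libraries of the TruSeq version 2 chemistry, per the labels' protocols. It leaves strand unmarked, and reads of overlapping antisense genes cannot be told apart. Reads were aligned with TopHat2 2.0.13, per the submitters' processing notes, which name the build GRCh37. That is a human build while the identifiers are mouse, so the build is unclear. The counter was not given in the sources used here, nor was the origin of the scaling.

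The authors deposited log2 values per gene and library, with a spreadsheet error in place of the log2 of 0 in 53.3% of control and 53.1% of buffer cells. These cells were read as 0. On the linear scale 100% of the values above 0 were whole multiples of the smallest, within a tolerance of 1e-06, and were read as counts times a factor, 1 for the control and 1.04 for buffer. Counts summed to 17776492 and 16105080 reads. Of 37991 rows, 25 had damaged symbols, which were restored by identifier, and rows sharing a symbol were summed. Of 705 listed symbols, 704 were found, 9 under older names, and Clec6a was not. Intervals of ratios are exact conditional (Clopper-Pearson), and a count of 0 allows 3 counts. PCR reads are not independent molecules, so intervals cover counting error only.

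The named genes are the 10 largest rises and falls with a mean of at least 5 units and a name, the members of 6 main lists, up to 4 members of each of 26 other lists by size, and markers of 13 cell types. The members and lists were chosen with earlier results of these data known. The planned rule assumed scaled reads and was kept on the deposited scaling. Alternatives were a pseudocount of 0.1, filters at 5 units, over 3 libraries and none, 3 other scalings, a 2-fold rule and no summing of rows. The recovery of known changes was tested on simulated data. Python 3.11.15, pandas 2.3.3 and scipy 1.17.1 were used. Promoters came from RefSeq. The values of 1 DNA replication gene are not reported here, though the counts over its list include it.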

Additional observations from a re-analysis of the deposited data

How the results depend on the processing

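With 1 library per group no replicate could be left out. No paired analysis was possible because each group is 1 library. The count of genes higher in buffer, 46, became 168 with a pseudocount of 0.1, 9 with a filter at 5 units, 83 with own totals and 0 with a 2-fold rule. The count lower, 90, became 203 with a pseudocount of 0.1, 43 with the filter and 7 with the 2-fold rule. The medians of class II presentation and of macrophage markers moved to -0.20 and -0.0923 with own totals. The other settings tried moved no count by over 1.5 times and no median of the 6 main lists beyond the median counting error of its members, and 0 of the 6 changed sign. Of 26 other lists 11 changed sign under at least 1 setting. Of 32 named genes recomputed, 0 reversed and 5 moved beyond counting error, namely Apoe, C1qb, C1qc, Slc16a3 and Slc2a1 with own totals, and Apoe also with the other 2 scalings. The cause was not tested. Depth limited the genes under 5 units, where 37 of the 46 higher genes lay and 9.42% of intervals excluded 1, against 61.2% at 100 units or more.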

Other observations

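The genes below were chosen after their values were seen, and no test was made of them. Nos2, the inducible nitric oxide synthase, had the largest difference of all genes compared, with 133 reads in the control and 10 with buffer, or 7.48 and 0.586 units, a ratio of 0.0783 (interval 0.0367 to 0.148). The rATB library held 357 reads of Nos2, or 22.7 units, so that its level differed widely among all 3 libraries. Of 13 genes of glycogen metabolism 12 passed the filter, with a median of -0.17. Differences were below 0 for 9 of them, against 63.4% of all genes. Gys1, glycogen synthase, had a level of 112 units in the control and 72.7 with buffer, and Ppp1r3b, which directs a phosphatase to glycogen, 49.4 and 27.5. Both were lower by the 1.5-fold rule, which 0.717% of all genes met. Gyg, the primer of glycogen chains, was at 306 and 329 units and Pygb at 54.2 and 59.1.

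Of the 4 pyruvate dehydrogenase kinases, Pdk1, Pdk2 and Pdk3 had differences of -0.72, -0.28 and -0.08, and Pdk4 had 3 and 2 reads. Of 8 condensin subunits 6 were above 0, against 36.6% of all genes. Ncapg at 0.66, Ncaph at 0.38 and Ncapd2 at 0.22 were the 3 whose counting intervals lay above 1. The interval of the subunit Ncaph2 lay below 1. Further genes lower by the rule were Lox, which crosslinks collagen, at 2.36 and 0.937 units, the peptide hormone gene Apln at 2.08 and 0.761, and Fcgr4, a receptor for IgG, at 26.9 and 15.8 units against 46.5 in the rATB library. Further genes higher by the rule were Rhoj, a small GTPase, at 1.58 and 3.75 units, and Dscc1 and Cdca7, genes of DNA replication and dividing cells, at 1.13 and 2.46 and at 1.13 and 2.34 units.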
